A study of Arabidopsis thaliana with 4 samples.

Results

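LBD transcription factors share the LOB domain, a plant-specific DNA-binding domain, and the genes described here are 9 members of this family with known roles in roots or in root nutrition and stress. They were chosen by gene identifier: *LBD16* (AT2G42430), *LBD18* (AT2G45420), *LBD29* (AT3G58190), *LBD33* (AT5G06080), *LBD4* (AT1G31320), *LBD37* (AT5G67420), *LBD38* (AT3G49940), *LBD39* (AT4G37540) and *LBD41* (AT3G02550). They are 9 of the 42 family genes in the TAIR10.1 annotation, of which 30 had reads, and 9 of 23425 genes with reads in all. RNA from roots of 8-day-old seedlings gave 4 libraries, 1 for WT and 1 for *arf7* without auxin (WT-Mock and *arf7*-Mock) and 1 for each with it (WT-NAA and *arf7*-NAA). WT was Col-0, and *arf7* was a single T-DNA insertion line of *ARF7* in the same background, so a difference between genotypes is a difference between WT and that line. NAA is the synthetic auxin 1-naphthaleneacetic acid, which the methods of the study give at 10 μM for 4 h, and Mock seedlings had none. The headers of the deposited comparison tables mark the NAA libraries N50, and the meaning of that tag, and with it the dose, remains in doubt. The labels describe growth in the dark and the methods a greenhouse with a light period, so the light regime is not settled.

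Auxin promotes lateral roots through the auxin response factors ARF7 and ARF19, which are held back by Aux/IAA repressors until auxin triggers the degradation of the latter. ARF7 and ARF19 activate *LBD16* and *LBD29*, which act when pericycle founder cells divide, and *LBD18*, which acts with *LBD16* in initiation and emergence and whose protein pairs with LBD33 at the promoter of the cell cycle gene *E2Fa*. LBD37, LBD38 and LBD39 are repressors of anthocyanin synthesis and of nitrate-responsive genes, LBD4 acts in the vascular cambium, and *LBD41* belongs to the core genes induced when oxygen is low. The comparisons asked which of these genes changed with NAA in each genotype and which differed between *arf7* and WT at each treatment.

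The sequences upstream of the members called below, and of *LBD16* for its role beside them, were read from the TAIR10.1 genome (RefSeq), because ARF proteins recognise the auxin response element core TGTC. Each is the 250 bases before the annotated start, written 5′ to 3′ on the strand of the gene, with TGTC and its reverse complement GACA in capitals.
LBD29 promoter (chr3:21549573-21549822, minus strand): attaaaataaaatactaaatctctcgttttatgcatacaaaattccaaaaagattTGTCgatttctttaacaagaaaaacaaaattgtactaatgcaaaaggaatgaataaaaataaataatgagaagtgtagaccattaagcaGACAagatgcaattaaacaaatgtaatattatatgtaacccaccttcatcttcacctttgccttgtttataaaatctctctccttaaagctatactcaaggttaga
LBD18 promoter (chr2:18718098-18718347, plus strand): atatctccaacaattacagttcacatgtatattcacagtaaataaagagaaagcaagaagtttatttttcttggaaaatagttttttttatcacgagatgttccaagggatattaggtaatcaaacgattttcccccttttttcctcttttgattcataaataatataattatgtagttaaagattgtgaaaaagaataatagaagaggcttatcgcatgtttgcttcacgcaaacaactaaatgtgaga
LBD16 promoter (chr2:17663103-17663352, plus strand): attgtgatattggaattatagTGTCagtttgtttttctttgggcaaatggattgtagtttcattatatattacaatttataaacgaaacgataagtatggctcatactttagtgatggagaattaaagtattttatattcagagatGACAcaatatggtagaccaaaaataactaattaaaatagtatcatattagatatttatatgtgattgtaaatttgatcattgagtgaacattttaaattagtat
LBD41 promoter (chr3:538127-538376, minus strand): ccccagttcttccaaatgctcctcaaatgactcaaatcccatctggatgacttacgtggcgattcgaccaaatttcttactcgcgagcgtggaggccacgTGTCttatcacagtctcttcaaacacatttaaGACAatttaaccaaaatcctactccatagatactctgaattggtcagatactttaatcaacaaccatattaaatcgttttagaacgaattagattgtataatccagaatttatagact
In these windows *LBD29*, *LBD16* and *LBD41* had 2 TGTC cores each on either strand and *LBD18* had 0. The core is common: 74.8% of 27443 promoters of this length held at least 1 and 42.4% held at least 2. Among the other members, *LBD37* had 4 cores, which 7.53% of promoters matched or exceeded, *LBD4* and *LBD39* had 3, *LBD33* had 2 and *LBD38* had 0. The G-box CACGTG, searched on both strands, stood at -154 in *LBD41* and overlapped the TGTC at -150, and at -153 in *LBD4*, where it overlapped the TGTC at -156. It was present in 6.49% of promoters of this length. The start used is that of TAIR10.1, which lies upstream of the start of the deposited model for several members. For *LBD37* the positions are 26906524 and 26906026, for *LBD39* 17640925 and 17640665, and for *LBD41* 538126 and 537998. The counts in these windows depend on that choice.

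The 6-base form TGTCTC was then searched on both strands over 1000 bases before each start, where 39.6% of promoters held it. The lateral root genes *LBD16*, *LBD18* and *LBD29* had 1 each and *LBD33* had 2, given here with the element in capitals (GAGACA where it lies on the other strand) and its distance from the start.
LBD16 element (chr2:17662667-17662696, at -674): tccattattgatTGTCTCcttagaatccaa
LBD18 element (chr2:18717373-18717402, at -963): atacgcgtggagGAGACAttgaggaagcac
LBD29 element (chr3:21550156-21550185, at -601): atgttgtagtttGAGACAgaataatgatga
LBD33 element (chr5:1831468-1831493, at -14): accaacgtgattTGTCTCaatctaac
LBD33 element (chr5:1831741-1831770, at -291): atattaggagaaGAGACActagctagacac
*LBD38* and *LBD39* also had 2 TGTCTC each, and *LBD4*, *LBD37* and *LBD41* had 0. The high-affinity form TGTCGG was found within 1000 bases of the start of no member, against 14.6% of all promoters. A match describes letters in a window and not a bound site.

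The libraries held between 7.03 M and 7.57 M reads assigned to genes. Since each condition has 1 library, differences cannot be set against the spread of replicates. The exact two-sided binomial test used here compares the reads of 2 libraries given their totals, not the conditions, and all confidence intervals (CI) are 95% and cover counting error only. A gene was called when P was under 0.0001 and its reads, scaled to the library totals, differed at least 2-fold. Over all genes the median of log2 ratios was -0.02, -0.02, 0.02 and 0.01 in WT-NAA VS WT-Mock, in *arf7* with NAA against Mock, in *arf7* against WT without NAA, and with NAA. Levels are given as RPKM, which scales reads to transcript length and library total. In whole roots, fewer cells that express a gene and less RNA per cell cannot be told apart. Root identity genes were present in every library, with reads on 9 of 9 markers, such as *SHR*, *SCR*, *CASP1* and the root hair gene *COBL9*. Summed reads of 11 seed and embryo markers were 11 in WT-Mock (2 of 11 with reads), 6 in WT-NAA (3 of 11), 25 in *arf7*-Mock (4 of 11) and 334 in *arf7*-NAA (8 of 11); the storage protein genes *CRA1* and *CRC* and the embryo regulator *LEC1* had no listed reads. Summed reads of 5 leaf and shoot markers were 354, 259, 103 and 620 in the same order, and the shoot meristem gene *STM* had 1 read in all. These lists therefore differ between the libraries beside every comparison with *arf7*-NAA and, for the leaf markers, *arf7*-Mock, and their part in the results was not tested. *ARF7* had 6 (Mock) and 12 (NAA) reads in WT, against 8 (Mock) and 3 (NAA) in *arf7*. *ARF7* has 2 transcript models, and only reads assigned uniquely to 1 model were counted. For *ARF7* these reads covered 1.4% to 2.1% of the model with the most reads. Its log2 ratio of *arf7* to WT was 0.48 without NAA (CI -1.24 to 2.29, exact binomial p = 0.60) and -1.92 with NAA (CI -4.39 to -0.03, exact binomial p = 0.036), not called in either, and so few reads do not settle the genotype labels.

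**Figure D1:**
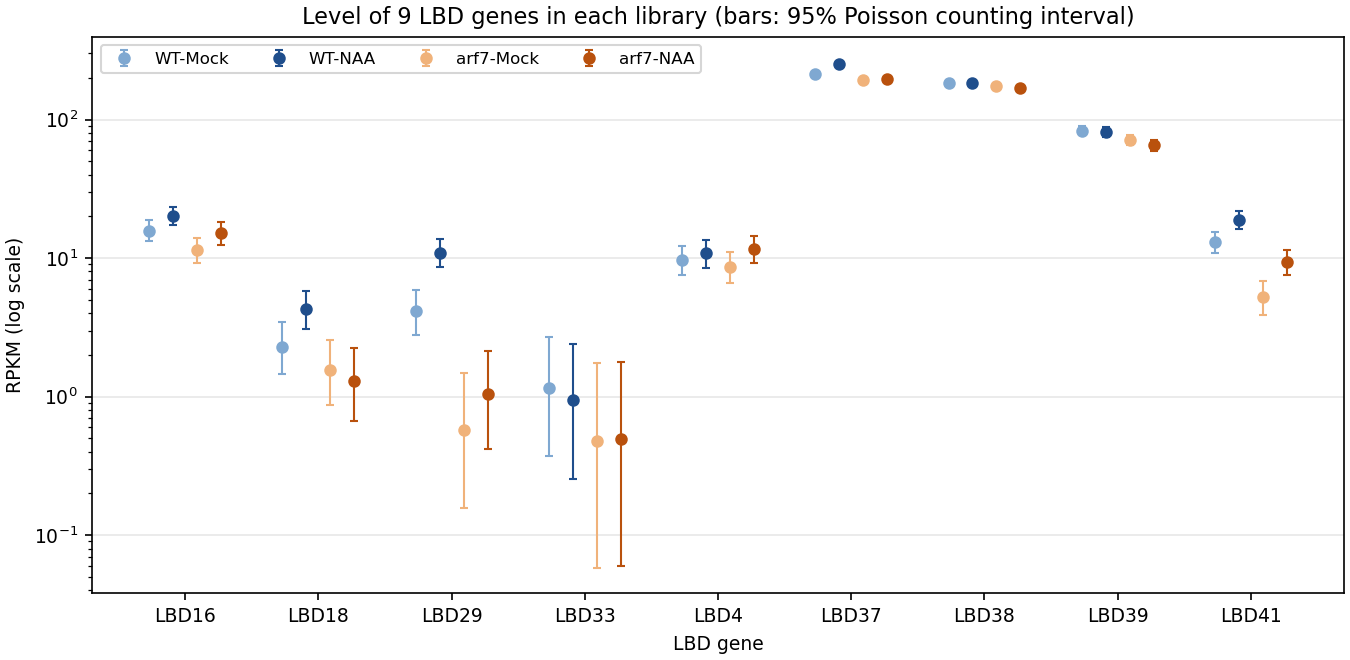
Level of each of the 9 LBD genes in RPKM (log scale) in the 4 libraries, 1 point per library with its 95% Poisson counting interval. *LBD37*, *LBD38* and *LBD39* stand between 65.1 and 251 RPKM in all libraries, and the intervals of *LBD29* in the *arf7* libraries lie below those in the WT libraries.

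*LBD29* was the only member called with NAA in WT and the member furthest below WT in *arf7*. It had 30 reads (4.13 RPKM) in WT-Mock and 78 (10.97 RPKM) in WT-NAA, against 4 (0.577 RPKM) in *arf7*-Mock and 7 (1.04 RPKM) in *arf7*-NAA. Both WT libraries were above both *arf7* libraries, and reads covered 58.9%, 74.7%, 13.2% and 35.6% of the transcript. Its level rose 2.65-fold with NAA in WT (log2 ratio 1.41, CI 0.78 to 2.07, exact binomial p = 1.8e-06, adjusted over all genes p = 3.8e-05). It was 7.16-fold lower in *arf7*-Mock than in WT-Mock (log2 ratio -2.84, CI -4.81 to -1.34, exact binomial p = 7.3e-06). The distance was 10.6-fold in *arf7*-NAA VS WT-NAA (log2 ratio -3.40, CI -4.76 to -2.29, exact binomial p = 1.1e-15). In *arf7* the ratio of NAA to Mock was 0.85 on the log2 scale with an interval of -1.13 to 3.07, from 7 and 4 reads, and was not called. The response in WT minus that in *arf7* was 0.55 on the log2 scale (CI -1.77 to 2.65, exact Fisher p = 0.51), so a difference of responses was not detectable at this depth. The gene lies on the minus strand of chromosome 3 at 21548484-21549572 in TAIR10.1 and has 2 exons.

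*LBD18* had 23 reads (2.29 RPKM) in WT-Mock and 42 (4.27 RPKM) in WT-NAA, against 15 (1.56 RPKM) in *arf7*-Mock and 12 (1.29 RPKM) in *arf7*-NAA. WT-NAA was the highest library, its interval lay above those of both *arf7* libraries, and the other 3 had intervals that overlapped each other. It was 3.32-fold lower in *arf7*-NAA than in WT-NAA (log2 ratio -1.73, CI -2.79 to -0.78), with an exact binomial p of 9.8e-05 that passed the threshold narrowly. With NAA in WT its ratio was 0.90 on the log2 scale (CI 0.13 to 1.70, exact binomial p = 0.018), which was not called. In *arf7* the same ratio was -0.28 (CI -1.51 to 0.91). The 2 responses differed by 1.17 on the log2 scale, with an interval of -0.28 to 2.65 that included 0 (exact Fisher p = 0.10, adjusted over all genes p = 0.43). In the Mock libraries *arf7* VS WT gave -0.55 (CI -1.59 to 0.45). The gene lies on the plus strand of chromosome 2 at 18718348-18720729.

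*LBD16* was better covered and moved less. It had 132 reads (15.8 RPKM) in WT-Mock and 165 (20.2 RPKM) in WT-NAA, against 91 (11.4 RPKM) in *arf7*-Mock and 117 (15.1 RPKM) in *arf7*-NAA, and it was called in 0 of 4 comparisons. Within each genotype the NAA library was the higher, and at each treatment the *arf7* library was the lower. The ratio of NAA to Mock was 0.35 on the log2 scale in WT (CI 0.01 to 0.69, exact binomial p = 0.037) and 0.40 in *arf7* (CI -0.0038 to 0.82, exact binomial p = 0.052). These responses differed by -0.05 with an interval of -0.59 to 0.49. The ratio of *arf7* to WT was -0.47 without NAA (CI -0.87 to -0.07) and -0.42 with NAA (CI -0.77 to -0.07). Neither interval reaches a ratio of -1, the 2-fold threshold. The gene lies on the plus strand of chromosome 2 at 17663353-17665337.

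*LBD33*, the dimer partner of LBD18, was close to the limit of detection, with 5 (Mock) and 4 (NAA) reads in WT, against 2 (Mock) and 2 (NAA) in *arf7*. Its RPKM ran from 0.482 to 1.15, and its intervals overlapped in all libraries. No difference of *LBD33* was detectable at this depth: in *arf7*-Mock VS WT-Mock the interval of the log2 ratio ran from -4.65 to 1.36.

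*LBD41*, the hypoxia-associated member, was the other member called lower in *arf7* both without and with NAA. It had 136 reads (13.0 RPKM) in WT-Mock and 193 (18.8 RPKM) in WT-NAA, against 52 (5.20 RPKM) in *arf7*-Mock and 91 (9.37 RPKM) in *arf7*-NAA. Both *arf7* libraries were below both WT libraries. It was 2.50-fold lower in *arf7*-Mock than in WT-Mock (log2 ratio -1.32, CI -1.81 to -0.85, exact binomial p = 4.9e-09). In *arf7*-NAA VS WT-NAA it was 2.01-fold lower (log2 ratio -1.01, CI -1.38 to -0.64, exact binomial p = 1.8e-08), just past the 2-fold threshold, and with a pseudocount of 1 RPKM the ratio was -0.94 and the call was lost. The NAA library was above the Mock library in each genotype, with a log2 ratio of 0.53 in WT (CI 0.21 to 0.86, exact binomial p = 9.2e-04) and 0.85 in *arf7* (CI 0.34 to 1.37, exact binomial p = 5.8e-04). Both stayed under 2-fold and were not called. The difference of these responses was -0.31 with an interval of -0.93 to 0.30, which includes 0. The gene lies on the minus strand of chromosome 3 at 536500-538126.

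The nitrate-associated repressors were the most abundant members. *LBD37* had 2664 reads (213 RPKM) in WT-Mock and 3073 (251 RPKM) in WT-NAA, against 2293 (192 RPKM) in *arf7*-Mock and 2275 (196 RPKM) in *arf7*-NAA, with WT-NAA above the others. Its ratio of NAA to Mock was 0.24 on the log2 scale in WT (CI 0.16 to 0.31, exact binomial p = 6.3e-10) and 0.03 in *arf7* (CI -0.05 to 0.11). The first minus the second was 0.21 (CI 0.09 to 0.32, exact Fisher p = 1.5e-04, adjusted over all genes p = 0.0029). By that test at an adjusted p under 0.05, 9.01% of all 21285 genes tested differed, and *LBD37* was the only 1 of the 9 members that did. In *arf7*-NAA VS WT-NAA its ratio was -0.36 (CI -0.43 to -0.28, exact binomial p = 3.3e-19). These are differences of 1.18-fold and 1.28-fold, under the 2-fold threshold, on 2275 to 3073 reads per library and no replicate.

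*LBD38* had 1450 (Mock) and 1422 (NAA) reads in WT, against 1305 (Mock) and 1234 (NAA) in *arf7*, or 184, 185, 174 and 169 RPKM in that order, the narrowest range among the members as a ratio. Its ratio of NAA to Mock was 0.00 on the log2 scale in WT, with an interval of -0.10 to 0.11. *LBD39* had 626, 598, 512 and 455 reads in the same order, or 83.1, 81.0, 71.2 and 65.1 RPKM. The *arf7* libraries were the lower ones, with a log2 ratio of -0.22 without NAA (CI -0.39 to -0.05) and -0.32 with NAA (CI -0.50 to -0.14, exact binomial p = 4.4e-04), not called. For these 3 genes every interval lay inside the 2-fold limits in every comparison.

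*LBD4*, the cambium member, had 70 reads (9.64 RPKM) in WT-Mock and 77 (10.8 RPKM) in WT-NAA, against 60 (8.65 RPKM) in *arf7*-Mock and 78 (11.6 RPKM) in *arf7*-NAA. Its counting intervals overlapped in all libraries. The log2 ratio was 0.17 with NAA in WT (CI -0.32 to 0.66), 0.42 with NAA in *arf7* (CI -0.08 to 0.93), -0.16 in *arf7*-Mock VS WT-Mock (CI -0.68 to 0.36) and 0.10 in *arf7*-NAA VS WT-NAA (CI -0.38 to 0.57).

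**Figure D2:**
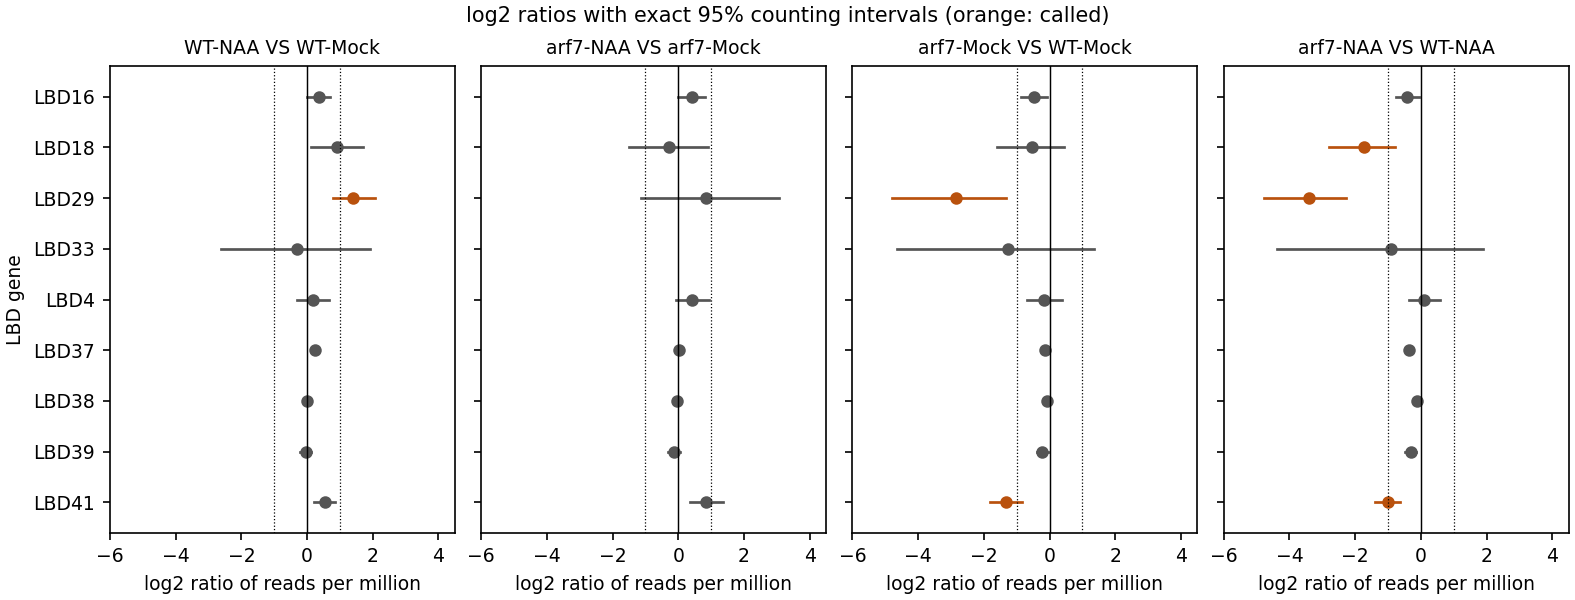
log2 ratio of library-scaled reads of each LBD gene in the 4 comparisons, with exact 95% counting intervals, dotted lines at 2-fold and called genes in orange. *LBD33* has no point in *arf7*-NAA VS *arf7*-Mock, where both libraries had 2 reads. *LBD29* is called in 3 comparisons, *LBD41* in 2 and *LBD18* in 1.

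Counted over the 9 members, 1 was called higher in WT-NAA VS WT-Mock, where 0.418% of 22469 genes tested were called higher, and 0 were called lower, against 0.668% of those genes. With NAA in *arf7* 0 of 9 were called, against 0.776% of 22557 genes in either direction. In *arf7*-Mock VS WT-Mock 2 were called lower, *LBD29* and *LBD41*, against 0.577% of 22537 genes, and 0 were called higher, against 0.466%. With NAA 3 were called lower in *arf7* than in WT, *LBD18*, *LBD29* and *LBD41*, against 0.805% of 22489 genes, and 0 were called higher, against 0.591%. The comparisons share libraries and are not independent of each other. These calls take counting error as the only error: when edgeR's exact test was given a biological coefficient of variation of 0.2, the call of *LBD29* between *arf7*-NAA and WT-NAA was the only 1 left among the members, and at 0.4 there were 0. At 0.2 the hypoxia list also had 0 calls. The ratio of *arf7* to WT was below 0 in 9 of 9 members without NAA, with a median of -0.47 on the log2 scale, against 0.02 over all genes. With NAA it was below 0 in 8 of 9, the exception being *LBD4*, with a median of -0.42 against 0.01. With NAA in WT 7 of 9 ratios were above 0 and the median was 0.24. All these directions include members whose interval crosses 0, such as *LBD33* in *arf7*-Mock VS WT-Mock with 2 against 5 reads. The members were chosen with earlier results of these data known, and the share of all genes on each side of 0 is not given. The directions are therefore a description of these 9 genes.

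**Figure D3:**
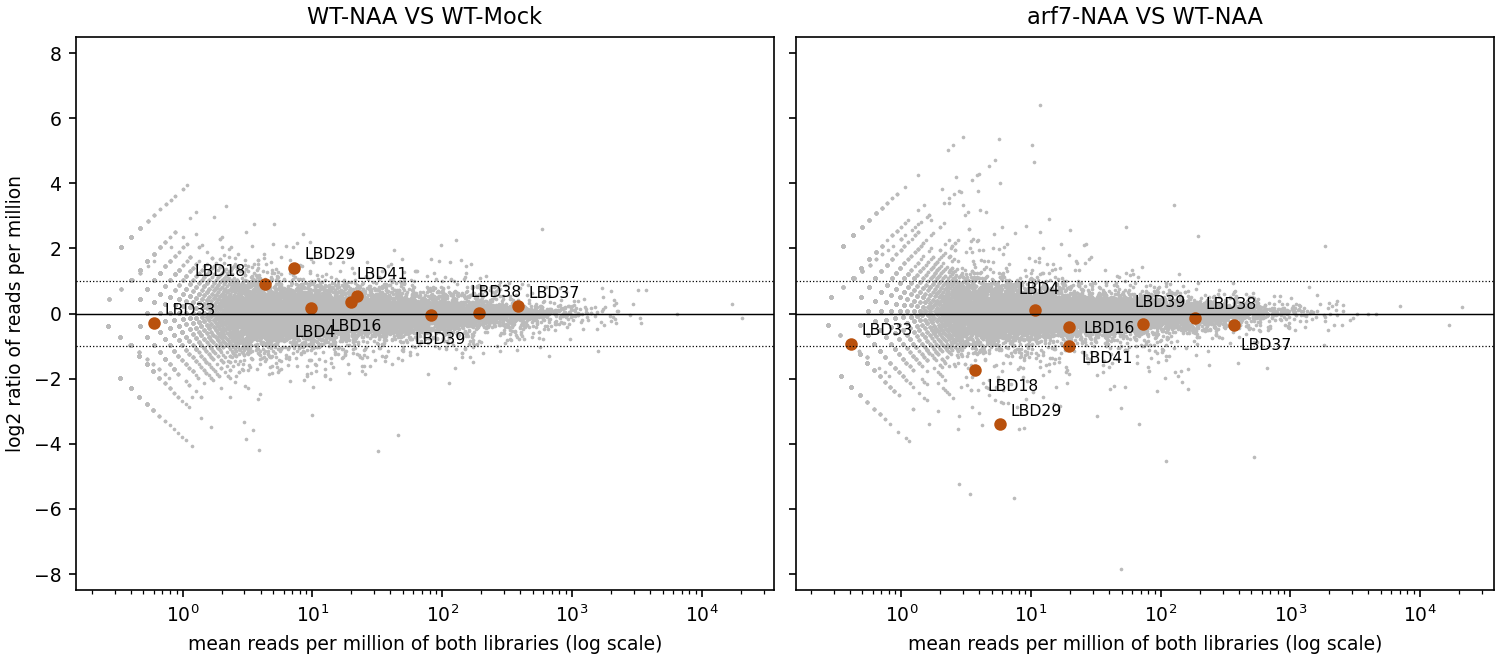
log2 ratio against mean RPM (reads scaled to the library total, log scale) for every gene with a ratio (grey) for NAA in WT (left) and for *arf7*-NAA VS WT-NAA (right), with the 9 LBD genes in orange and dotted lines at 2-fold. *LBD29* lies at 1.41 and -3.40, beyond the 2-fold lines, and *LBD37*, *LBD38* and *LBD39* lie within 0.4 of 0.

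In WT-Mock the order of levels was *LBD37*, *LBD38*, *LBD39*, *LBD16*, *LBD41*, *LBD4*, *LBD29*, *LBD18* and *LBD33*. The first 3 were set apart: *LBD39* stood 5.26 times above *LBD16* (CI 4.35 to 6.40). *LBD16* and *LBD41* did not differ beyond counting error (ratio 1.21, CI 0.95 to 1.56), nor did *LBD18* and *LBD33* (ratio 1.99, CI 0.74 to 6.71). In WT-NAA *LBD29* moved past *LBD4*, with a ratio of 1.01 and an interval of 0.73 to 1.41, so these neighbours did not differ beyond counting error, nor did *LBD16* and *LBD41* (ratio 1.07, CI 0.86 to 1.32). In *arf7*-Mock *LBD16* and *LBD4* did not differ beyond counting error (ratio 1.32, CI 0.94 to 1.86), *LBD41* stood below *LBD4*, which was 1.66 times higher (CI 1.13 to 2.46), and *LBD29* stood below *LBD18* at a ratio of 2.71 whose interval ran from 0.86 to 11.2. *LBD29* and *LBD33* in *arf7*-Mock did not differ beyond counting error either (ratio 1.20, CI 0.17 to 13.2). In *arf7*-NAA *LBD16* and *LBD4* (interval of the ratio 0.97 to 1.76) and *LBD4* and *LBD41* (ratio 1.24, CI 0.90 to 1.69) did not differ beyond counting error, and *LBD18*, *LBD29* and *LBD33* could not be ordered, since the interval of each neighbouring pair included 1.

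The 9 members carried between 78.4% and 80.4% of the reads of the whole family in each library, most of them from *LBD37* and *LBD38*. Family RPM (reads scaled to the library total) was 844 (Mock) and 968 (NAA) in WT, against 765 (Mock) and 771 (NAA) in *arf7*. Of the 33 other family genes, 21 had reads and 0 were called in any comparison. At most 0.805% of all genes were called in any 1 direction, so 0 of 21 is near the share over all genes. Some, such as *LBD1* with 1 to 4 reads per library, had too few reads to be called. *LBD13* had the highest RPKM of these other family genes, with 479 (Mock) and 680 (NAA) reads in WT, against 512 (Mock) and 483 (NAA) in *arf7*. WT-NAA was its highest library, with a log2 ratio to WT-Mock of 0.54 (CI 0.36 to 0.71, exact binomial p = 4.2e-10), under 2-fold. In *arf7* the ratio was -0.04, and the responses differed by 0.58 (CI 0.33 to 0.83, exact Fisher p = 2.8e-06, adjusted over all genes p = 8.5e-05). *LBD36* had between 349 and 465 reads and *LBD12* between 111 and 148, each highest in WT-NAA and lowest in *arf7*-NAA. For both genes the interval of the ratio of NAA to Mock included 0 in each genotype, so most of this order lay within counting error. In *arf7*-NAA VS WT-NAA the log2 ratio was -0.34 for *LBD36* (CI -0.54 to -0.13) and -0.34 for *LBD12* (CI -0.71 to 0.03).

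**Figure D4:**
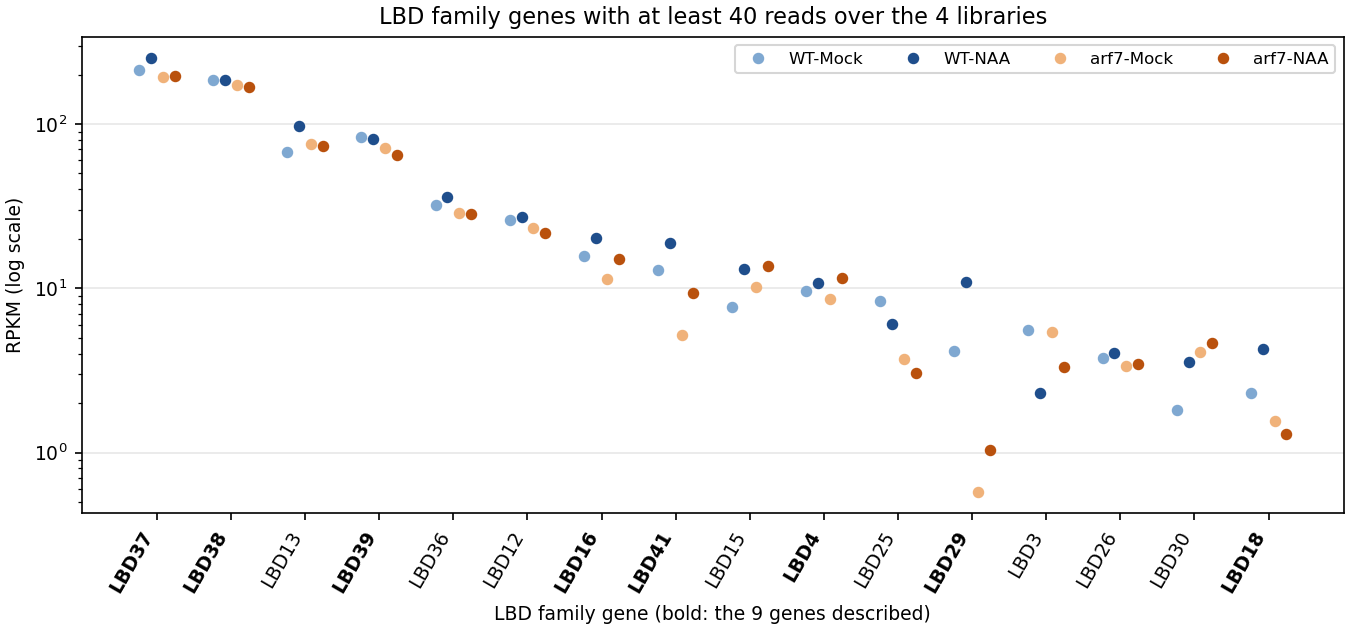
RPKM (log scale) of the LBD family genes with at least 40 reads over the 4 libraries, 1 point per library, ordered by mean level, with the genes described here in bold. *LBD13* stands near *LBD39*, and *LBD29* has the lowest points, at 0.577 and 1.04 RPKM in the *arf7* libraries.

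The surroundings of the members in their pathways were read from gene lists drawn from known roles. Some listed genes, such as *E2Fa*, *bZIP59*, *TGA1* and *HRE1*, have more than 1 transcript model. Their uniquely assigned reads may miss part of their RNA, so the lack of a call says little for them. Over all genes, 0.418% were called higher with NAA in WT and 0.805% lower in *arf7*-NAA than in WT-NAA. Of 26 genes of the lateral root pathway (the ARF and Aux/IAA regulators, PLT factors, auxin carriers and cell wall enzymes of emergence), 1 was called with NAA in WT and again between *arf7*-NAA and WT-NAA, and 0 in the other comparisons. It was *PRH1*, a PR-1 homologue, with 25 (Mock) and 76 (NAA) reads in WT, against 4 (Mock) and 11 (NAA) in *arf7*. The study chose it on these samples together with public expression data, so its direction here is not independent evidence. The paper also tested *PRH1* apart from these libraries, by qPCR and a promoter reporter in WT and *arf7*. In *arf7* it reported no response to auxin by qPCR and a slight induction of the reporter. It rose with NAA in WT (log2 ratio 1.63, exact binomial p = 2.1e-07) and was 6.55-fold lower in *arf7*-NAA than in WT-NAA (log2 ratio -2.71, exact binomial p = 1.4e-12). In *arf7*-Mock VS WT-Mock its log2 ratio was -2.58 with an exact binomial p of 1.2e-04, just outside the threshold. The log2 ratios of *LBD29* were 1.41 with NAA in WT, and -3.40 with and -2.84 without NAA for *arf7* against WT. The median log2 ratio of the list was 0.13 with NAA in WT and 0.01 in *arf7*, and -0.14 without and -0.15 with NAA for *arf7* against WT.

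Of 24 genes of nitrate assimilation and anthocyanin control, 1 was called higher with NAA in WT, 0 with NAA in *arf7*, 1 up and 1 down between the Mock libraries of *arf7* and WT, and 1 down between their NAA libraries. The shares of all genes called in the same order were 0.418%, 0.776% (either direction), 0.466% and 0.577%, and 0.805%. *NIA1*, a nitrate reductase, had 280 (Mock) and 1184 (NAA) reads in WT, against 598 (Mock) and 895 (NAA) in *arf7*. It rose 4.32-fold with NAA in WT (log2 ratio 2.11, exact binomial p = 2.0e-136), and without NAA it was 2.24-fold above WT in *arf7* (log2 ratio 1.16, exact binomial p = 1.1e-30), while its ratio with NAA in *arf7* was 0.62. Across the same libraries the repressor genes *LBD37*, *LBD38* and *LBD39* differed by less than 2-fold. *MYBL2*, a repressor of anthocyanin genes, had 91 and 67 reads in the WT libraries and 10 in each *arf7* library. It was lower in *arf7* without NAA (log2 ratio -3.12, exact binomial p = 6.5e-17) and with NAA (log2 ratio -2.67, exact binomial p = 5.0e-11). The median of the list was 0.14 with NAA in WT and 0.05 in *arf7*, and 0.01 without and -0.24 with NAA for *arf7* against WT.

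Of 17 genes of the hypoxia response, 1 was called in each comparison, and they were not the same gene throughout. Over all genes, 0.668% were called lower with NAA in WT and 0.776% in either direction with NAA in *arf7*. Lower in *arf7* than in WT were 0.577% of all genes without NAA and 0.805% with NAA. The ethylene receptor gene *ETR2* had 388 and 433 reads in WT-Mock and WT-NAA and 165 and 175 in *arf7*-Mock and *arf7*-NAA, so that it was lower in *arf7* without NAA (log2 ratio -1.17, exact binomial p = 1.5e-19) and with NAA (log2 ratio -1.23, exact binomial p = 2.5e-23), the comparisons in which *LBD41* was called. *RBOHD*, an NADPH oxidase gene, fell by 1.07 on the log2 scale with NAA in WT (978 to 457 reads, exact binomial p = 1.5e-41). *PCO1*, an oxygen-dependent cysteine oxidase gene, rose 2.27-fold with NAA in *arf7* (34 to 75 reads, exact binomial p = 4.8e-05). For *arf7* against WT the median log2 ratio of the list was -0.07 without NAA, where *LBD41* stood at -1.32, and 0.27 with NAA, where it stood at -1.01. With NAA 14 of 16 hypoxia genes with a ratio were above 0 and 2 below, where the median over all genes was 0.01. Some of those above 0 were not differences of reads. *HB1* (66 reads), *HRE1* (11) and *SRO5* (8) had equal reads in WT-NAA and *arf7*-NAA and stood above 0 by the library totals alone. These directions take no account of counting error. Without NAA 5 were above 0 and 11 below. With NAA against Mock the median was -0.15 in WT and 0.38 in *arf7*, and *LBD41* stood at 0.53 and 0.85.

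Of 11 genes of the vascular cambium 0 were called in any comparison. At most 0.805% of all genes were called in any 1 direction, so 0 of 11 is near the share over all genes. The cambium genes with the most reads were the homeobox gene *HB8* (533 to 668 reads), the Dof factor gene *TMO6* (413 to 582 reads) and the receptor kinase gene *PXY* (358 to 519 reads). For *PXY* the log2 ratio with NAA in WT was -0.51 and that of *LBD4* was 0.17. The median of the list was -0.20 with NAA in WT and -0.19 in *arf7*, and -0.14 without and -0.09 with NAA for *arf7* against WT.

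**Figure D5:**
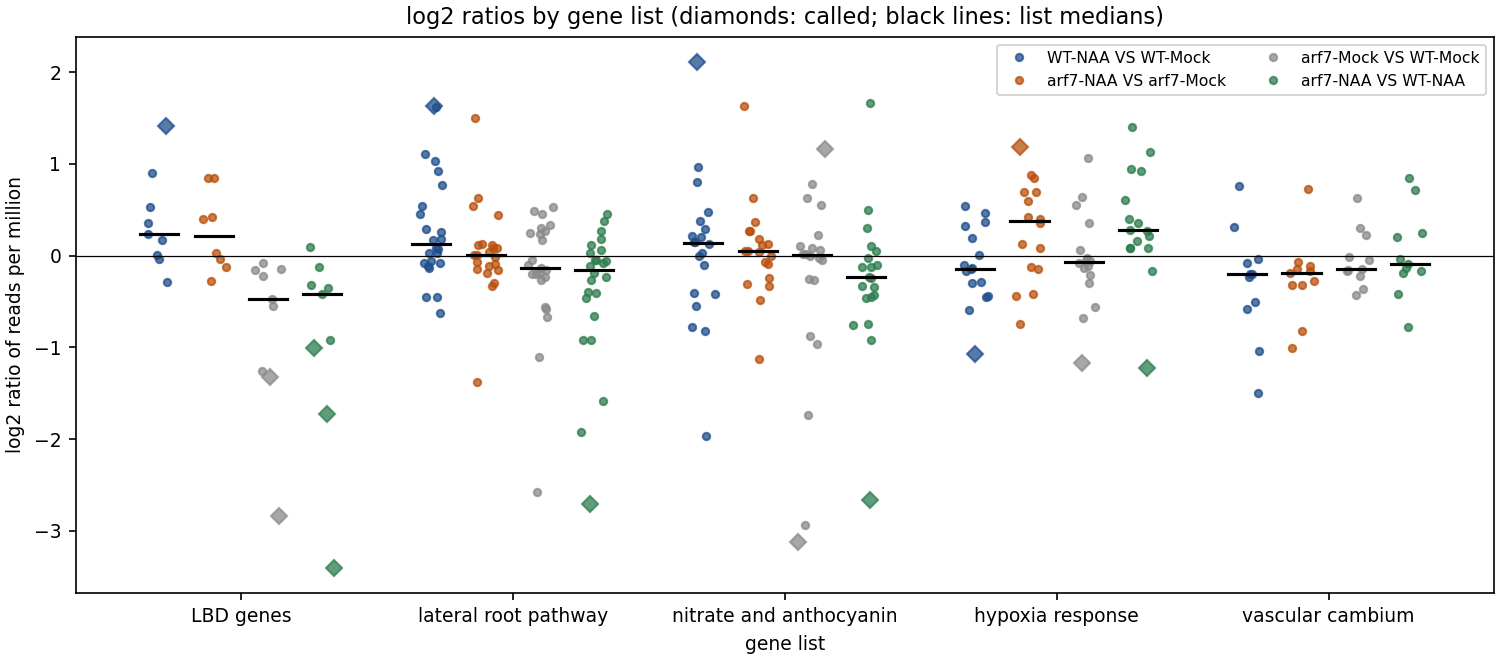
log2 ratio of library-scaled reads of the LBD genes and of the genes of 4 lists in the 4 comparisons, with 1 point per gene, diamonds for called genes and black lines for list medians. The LBD genes have medians of -0.47 and -0.42 in the comparisons of *arf7* with WT, with *LBD29* lowest at -2.84 and -3.40.

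The genes whose profile over the 4 libraries was nearest to that of each member were found among 11076 genes with at least 50 reads in every library, by the root mean square distance of centred log2 RPM. Each profile rests on 4 values. Near *LBD18* were AT3G22060 (distance 0.09), *DFL1*, a GH3 gene for conjugation of auxin with amino acids (0.13), and AT4G12545 (0.17). *DFL1* had 504 (Mock) and 726 (NAA) reads in WT, against 271 (Mock) and 238 (NAA) in *arf7*. Nearest to *LBD41* was another GH3 gene, *BRU6* (0.09), with 777, 1065, 254 and 461 reads, followed by *LTPG1*, which encodes a lipid transfer protein (0.11), and AT5G44417 (0.20). Among the genes searched, the nearest to *LBD29* was *CDEF1*, a cutinase gene, at 0.43 with 334, 1575, 57 and 64 reads. AT5G01870 and *PDF1* followed, both at 0.48. *LBD29* had 4 and 7 reads in the *arf7* libraries, so its own profile is imprecise there. *LBD18* had 23 (Mock) and 42 (NAA) reads in WT, against 15 (Mock) and 12 (NAA) in *arf7*. Its profile is imprecise too, and the order of its neighbours is uncertain. *LBD29* and *LBD18* would themselves fail the limit of 50 reads. Genes with as few reads, such as *PRH1*, were not searched, so a closer match among them cannot be seen here. Nearest to the other members were *IQD26*, AT3G61960 and AT1G33330 for *LBD16*, AT5G02850, AT1G29810 and *EMB1793* for *LBD4*, AT2G17150, AT5G05480 and AT1G72180 for *LBD37*, AT4G14990, AT3G07790 and *TOPP7* for *LBD38*, and *AAE17*, *PUB38* and *CVP2* for *LBD39*. *LBD33* had too few reads for such a search.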

How the data were processed

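The authors deposited, for each library and transcript model, the count of reads assigned uniquely to the model, its RPKM, and the percent of its length that reads covered. The aligner is not given in the sources used here. RPKM recomputed from the counts matched the deposited RPKM. The authors' 4 comparison tables (log2 ratios, p-values and false discovery rates), with their 16 per-sample columns, were not used. Samples were grouped by their titles, and dose and time come from the methods of the study.

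Reads and RPKM were summed by gene over its models (each member has 1) and scaled by the library totals of the files (7.57 M for WT-Mock, 7.42 M for WT-NAA, 7.23 M for *arf7*-Mock, 7.03 M for *arf7*-NAA) in Python 3.11.15 with SciPy 1.17.1. Genes with reads in either library were tested by the exact two-sided binomial test, adjusted by Benjamini-Hochberg over all genes. Ratios have Clopper-Pearson intervals and levels Poisson intervals. For ratios a count of 0 was set to 3 reads, its one-sided 95% limit, and no ratio was formed where both counts were 3 or fewer. Differences of NAA responses are conditional odds ratios scaled by library totals with Fisher's exact test.

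The members, gene lists and markers were chosen with earlier results of these data known. Named are all members, *ARF7*, the 3 other family genes with the highest RPKM, the called genes of each list or its 3 with most reads, and the 3 nearest profiles. The deposited coordinates of 25872 of 25879 models (99.97%) overlap the same TAIR10.1 gene, and loci are TAIR10.1. Alternatives were edgeR 4.0.16 TMM, DESeq2 1.42.0 size factors, the model with most reads, a pseudocount of 1 RPKM, other thresholds (for the family and lists, the adjusted p was added after seeing the data), a minimum of 10 reads, and the exact test of edgeR, taking the biological coefficient of variation as 0.2 or 0.4 (R 4.3.3).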

Additional observations from a re-analysis of the deposited data

Results flagged for a closer look

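For 11 of 56 named genes tested the response to NAA in WT differed from that in *arf7* by Fisher's exact test on the reads of the 4 libraries, at an adjusted p under 0.05 over all genes. Of all genes tested 9.01% did. Many of the 56 were named for calls or profiles in these same libraries, so their count cannot be read as an excess over that share. The log2 response in WT minus that in *arf7* was 0.21 for *LBD37*, 0.58 for *LBD13*, 1.49 for *NIA1* and -1.62 for *PCO1*. Among the genes with the nearest profiles, it was 1.20 for AT3G22060, 0.70 for *DFL1* and 1.04 for AT4G12545 (near *LBD18*), 2.06 for *CDEF1* and 1.099 for AT5G01870 (near *LBD29*) and -0.42 for *BRU6* (near *LBD41*). These were picked for their profile over the same libraries, so their differences are a description. For the root marker *CASP1* it was 0.80. Each rests on 1 library per condition and on counting error alone. The summed seed markers, with 334 reads in *arf7*-NAA and between 6 and 25 in the others, move with one of these 4 libraries, and their part was not tested.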

How the results depend on the processing

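Member values tried kept their direction and side of the threshold under edgeR TMM, DESeq2 size factors and the transcript model with the most reads. The number of members called stayed the same with a Benjamini-Hochberg adjusted p under 0.05 together with 2-fold. It also stayed the same with 2-fold alone with 10 reads and with a minimum of 10 reads. A pseudocount of 1 RPKM changed 1 value: *LBD41* in *arf7*-NAA VS WT-NAA stood at -0.94 on the log2 scale, under the threshold. For the family and the lists the adjusted p together with 2-fold was tried after seeing the data. It added *LBD25* to the family in *arf7*-Mock VS WT-Mock, making 3. To the lists it added *PRH1* in *arf7*-Mock VS WT-Mock (1 in the lateral root list), *PGLR* (2 in that list), *DFR* (2 in the nitrate and anthocyanin list) and *ADH1* (2 in the hypoxia list) in *arf7*-NAA VS WT-NAA, *DFR* with NAA in *arf7* (1) and *ANT* with NAA in WT (1 in the cambium list). The share of all genes called at this adjusted p is not given, and the shares above for P under 0.0001 do not apply to these counts. They are therefore not read as an excess. The calls depend on taking counting error as the only error. When edgeR took biological variation as 0.2 (a coefficient of variation) in its exact test, members called were 0 in WT-NAA VS WT-Mock, 0 in *arf7*-Mock VS WT-Mock and 1 (*LBD29*) in *arf7*-NAA VS WT-NAA, and the whole family gave the same 0, 0 and 1. In that setting the lateral root list had 0 calls in WT-NAA VS WT-Mock, the nitrate and anthocyanin list had 1 in *arf7*-Mock VS WT-Mock, and the hypoxia list had 0 in each comparison. At 0.4, members called were 0 in all comparisons. Over all genes, calls numbered 27, 46, 45 and 96 at 0.2 and 2, 8, 1 and 17 at 0.4 for NAA in WT, NAA in *arf7*, and *arf7* against WT without and with NAA. Depth limits *LBD33*, with 2 to 5 reads per library, and *LBD29* and *LBD18* in *arf7*, with 4 to 15 reads. No paired analysis was possible because there is 1 library per condition.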

Other observations

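Further family genes, chosen after their values were seen, had few reads and were not called. *LBD25* had 59 (Mock) and 42 (NAA) reads in WT, against 25 (Mock) and 20 (NAA) in *arf7*, with a log2 ratio of *arf7* to WT of -1.17 without NAA (CI -1.91 to -0.47, exact binomial p = 4.4e-04, adjusted over all genes p = 0.0051), and would be called at an adjusted p under 0.05 with 2-fold. *LBD30* had 13, 25, 28 and 31 reads in the same order and its log2 ratio of *arf7* to WT without NAA was 1.17 (CI 0.18 to 2.25). *LBD3* had 27 and 11 reads in WT without and with NAA, a log2 ratio of -1.27 (CI -2.43 to -0.21). *LBD15* had 53 and 88 reads in WT without and with NAA and 67 and 87 in *arf7*. *LBD17* had 8, 12, 7 and 2 reads and *LBD19* had 2, 8, 2 and 0, each highest in WT-NAA, and 0 reads allow up to 3 (a one-sided 95% limit).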
